A study of Homo sapiens with 2 samples.

Results

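The RNA-Seq levels of 10 S100 genes were examined in untreated cells of 2 lines, MDA PCa 2b (1 library) and RC77 T/E (1 library): S100A2, S100A4, S100A6, S100A8, S100A9, S100A10, S100A11, S100A14, S100A16 and S100P. They were chosen by gene name from the deposited table of TPM values (transcript abundance scaled to the same total in each library), 10 of the 21382 genes that it lists, and S100A2 brought the family into view because it is among the genes most skewed to RC77 T/E. The choice therefore used the difference between the cell lines, and every value below is a description without a test. Both are established human prostate cancer cell lines. MDA PCa 2b cells were grown in a Ham's F-12 medium with serum, cholera toxin, epidermal growth factor, hydrocortisone and insulin, and RC77 T/E cells in Keratinocyte-SFM with the same growth factor and an extract of bovine pituitary. Cell line and culture medium cannot be told apart in these data. No value has a replicate error, and TPM keeps no record of read numbers, so depth and counting error are unknown. Where 2 TPM values stand together below, the first is that of MDA PCa 2b and the second that of RC77 T/E.

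S100 proteins are small calcium sensors with a pair of EF-hand loops. Most form dimers, change shape when calcium binds and then attach to target proteins such as annexins, myosins or cytoskeletal linkers, and several are also secreted and act on cell surface receptors such as RAGE (AGER) and TLR4. Most of the genes lie together on the long arm of chromosome 1, interleaved with the epidermal differentiation genes that build the outer layers of stratified epithelia, while S100P is on chromosome 4.

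The cell lines expressed different S100 genes at high level. S100A2, which is typical of the basal layer of stratified epithelia, had a TPM of 0.241 in MDA PCa 2b, against 2600 in RC77 T/E. S100P, first isolated from placenta and often raised in carcinomas, had a TPM of 2604 in MDA PCa 2b, against 8.46 in RC77 T/E. Each was thus the leading S100 gene of one line and a minor one in the other. Only 49 genes of the table were higher than S100A2 in RC77 T/E cells, and 67 were higher than S100P in MDA PCa 2b.

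**Figure D1:**
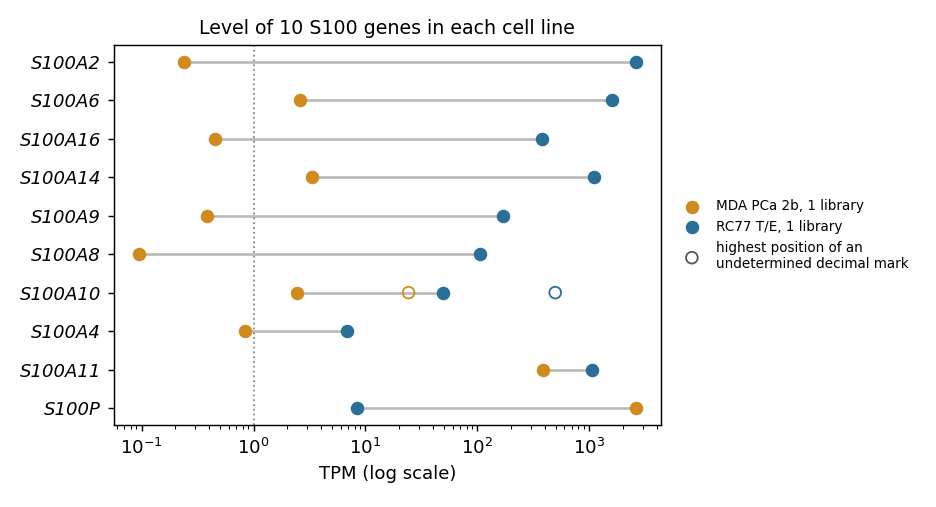
TPM of the 10 S100 genes on a log axis, 1 point per library, ordered by the difference between the lines; open circles give the higher of the values that fit where the decimal mark could not be determined, and the dotted line is 1 TPM. The RC77 T/E point lies to the right for 9 genes and to the left for S100P.

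The RNA start regions of 5 of these genes are shown because they belong to the genes at either end of the range and to the S100A8-S100A9 pair. Each run is the 250 bases before a RefSeq transcript start, read along the gene's strand on GRCh38.p14. All 10 genes have such an entry, with 14 starts in all. Capitals mark matches, on either strand, to an AP-1 site, a TATA box or a GC box, and no match overlaps one of another motif. The windows are chr1:153565845-153566094 for S100A2, chr1:153535992-153536241 for S100A6 and chr1:153391074-153391323 for S100A8, all on the minus strand, and chr1:153357604-153357853 for S100A9 and chr4:6693628-6693877 for S100P, both on the plus strand.
S100A2: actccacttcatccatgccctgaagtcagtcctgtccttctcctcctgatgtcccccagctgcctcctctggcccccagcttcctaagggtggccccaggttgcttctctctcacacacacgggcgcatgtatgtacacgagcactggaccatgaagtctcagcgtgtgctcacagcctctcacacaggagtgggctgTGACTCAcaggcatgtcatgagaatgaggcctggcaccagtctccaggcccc
S100A6: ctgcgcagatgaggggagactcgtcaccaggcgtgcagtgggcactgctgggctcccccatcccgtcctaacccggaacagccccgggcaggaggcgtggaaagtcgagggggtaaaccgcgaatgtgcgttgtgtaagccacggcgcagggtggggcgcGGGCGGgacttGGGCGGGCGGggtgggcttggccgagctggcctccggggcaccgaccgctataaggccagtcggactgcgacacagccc
S100A8: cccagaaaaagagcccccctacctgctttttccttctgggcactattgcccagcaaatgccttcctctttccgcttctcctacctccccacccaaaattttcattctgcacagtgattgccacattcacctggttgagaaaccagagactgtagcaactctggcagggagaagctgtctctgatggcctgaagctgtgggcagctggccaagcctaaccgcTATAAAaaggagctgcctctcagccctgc
S100A9: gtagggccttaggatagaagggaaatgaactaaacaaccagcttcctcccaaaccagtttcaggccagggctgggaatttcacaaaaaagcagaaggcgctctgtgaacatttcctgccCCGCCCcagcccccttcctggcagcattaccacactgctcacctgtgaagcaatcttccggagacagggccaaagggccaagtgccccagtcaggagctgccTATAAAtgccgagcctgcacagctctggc
S100P: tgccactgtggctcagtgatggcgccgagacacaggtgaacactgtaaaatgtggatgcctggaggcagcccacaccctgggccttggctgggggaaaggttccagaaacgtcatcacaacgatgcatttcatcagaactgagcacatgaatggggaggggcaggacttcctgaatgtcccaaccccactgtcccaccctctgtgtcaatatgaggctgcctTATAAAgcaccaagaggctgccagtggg

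The S100A2 window shown holds a match to the AP-1 site, TGANTCA, that begins 52 bases before the start, and neither the window of the second S100A2 start nor those of the other members hold one. That is 1 of the 14 windows (7.14%), and such a match was present in 6.57% of all 35116 promoter windows of this length. A TATA box, spelled TATAAA, was found for 4 members, S100A4, S100A8, S100A9 and S100P, in 5 of the 14 windows (35.7%) against 10.7% of all windows. S100A8 has 3 overlapping windows for its 3 starts, and the same box begins 29 bases before the start shown, 126 bases before another and outside the window of the third. It begins 29 bases before the start in S100A9 and 28 bases before it in S100P, so genes that were high in opposite cell lines share this feature. GC boxes, spelled GGGCGG, were found for 5 members, in 5 of the 14 windows (35.7%) against 42.6% of all windows, and S100A6 has 3 of them, of which 2 overlap each other. These are matches of letters and were not tested as binding sites.

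To call a gene expressed, the study asked for a mean of 1 TPM over its samples and for detection in a minimum share of them. With 1 TPM applied to each library, 10 of the 10 members reached it in RC77 T/E, and MDA PCa 2b had 5. Over all genes of the table the shares were 52.8% (RC77 T/E) and 49.6% (MDA PCa 2b). At 1000 TPM or more there were 4 members in RC77 T/E cells, S100A2, S100A6, S100A14 and S100A11, and 1 in MDA PCa 2b, S100P, beside 0.557% and 0.655% of all genes. The summed TPM of the members was 7077 (RC77 T/E) and 2998 (MDA PCa 2b), or 7524 and 3020 at the higher of the values that fit for S100A10. Without S100P and S100A11 the sum in MDA PCa 2b was 10.3 TPM, or 32.2 TPM with the higher S100A10 value.

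S100P made up 86.8% of the summed TPM in MDA PCa 2b and S100A11 12.8%. In RC77 T/E cells S100A2 gave 36.7%, S100A6 22.7%, S100A14 15.5% and S100A11 14.9%, and S100P 0.120%. S100A11 was the only member with a share above 10% in both lines.

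**Figure D2:**
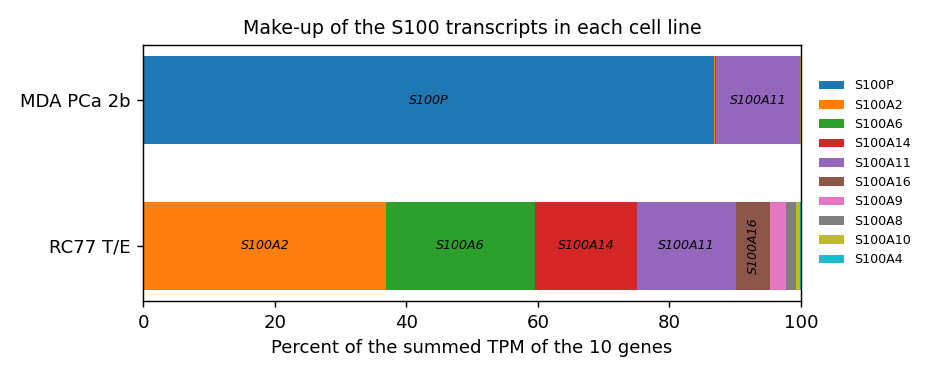
Share of each gene in the summed TPM of the 10 S100 genes (percent, from 0 to 100), 1 bar per library, with S100A10 at the lower of the values that fit. S100P fills 86.8% of the MDA PCa 2b bar, and S100A2, S100A6, S100A14 and S100A11 together fill 89.9% of the RC77 T/E bar.

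Differences between the lines are given as a log2 ratio, RC77 T/E divided by MDA PCa 2b, after adding 1 TPM to each value. Adding 1 TPM understates the change of genes that are low in either line. Over the 11624 genes whose mean reached 1 TPM the median of this ratio was -0.15, so the table as a whole leans slightly to MDA PCa 2b. By this ratio 9 of the 10 members were raised 2-fold or more in the RC77 T/E library and 1, S100P, in that of MDA PCa 2b, where the shares over all 11624 genes were 19.4% and 20.0%. At 4-fold the members numbered 8 and 1, beside 9.69% and 6.19% of all genes, with S100A11 no longer counted. The family was chosen with this difference in view, so nothing is read from these counts. All 10 had a mean of 1 TPM or higher, 5 of them (S100A2, S100A4, S100A8, S100A9 and S100A16) through RC77 T/E alone. The median log2 ratio of the members was 6.77, and centring on the median of all genes raises each member's ratio by 0.15.

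**Figure D3:**
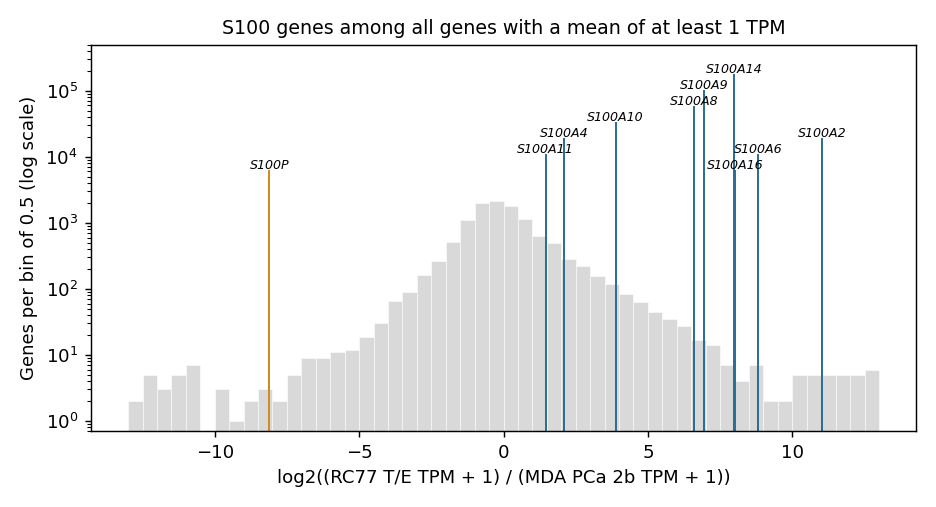
Distribution of the log2 ratio (RC77 T/E over MDA PCa 2b, 1 TPM added) over 11624 genes (grey bars, genes per bin of 0.5 on a log axis), with the ratio of each S100 gene as a vertical line whose height carries no value. S100A2 stands at 11.03, S100P at -8.10 and S100A11 nearest to the middle at 1.46.

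S100A2 (ENSG00000196754) lies on chromosome 1 of GRCh38 from 153561108 to 153567890. Its log2 ratio of 11.03 was the third highest among the 11012 protein-coding genes whose mean reached 1 TPM, at the lowest and at the highest positions of the decimal mark. The gene directly above it was EEF1A1, a translation elongation factor that every cell needs, with a TPM of 2393 in RC77 T/E but listed at 0 in MDA PCa 2b. A 0 for such a gene can be a failed estimate, so a value listed at 0 in this table does not show that a gene is silent. S100A2 itself had a value above 0 in both lines. The gene directly below at the lowest positions was KRT17, a keratin of basal and stressed epithelia, at 0.0571 and 1608 TPM. By the distance of log2 TPM plus 1 in both libraries, the genes closest to S100A2 outside its family were EEF1A1, LAMB3 and KRT5, at distances of 0.33, 0.61 and 0.70. LAMB3, a chain of the basement membrane protein laminin-332 that basal cells lay down, was at 0.195 and 1702 TPM, and KRT5, the basal keratin, at 0.00435 and 4027 TPM. Likeness over 2 libraries says only that both values are near.

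S100A6, also called calcyclin and a partner of the CACYBP protein, was at 2.59 and 1608 TPM, a 620-fold difference and a log2 ratio of 8.81. S100A14 was at 3.31 and 1100 TPM, or 332-fold higher in RC77 T/E. S100A16 was at 0.456 and 374.6 TPM, with 8.01 for the ratio. With S100A2 these 3 genes had the highest ratios of the members when 1 TPM was added, but without it S100A8, at 1116-fold, stood above all 3 of them. S100A14 and S100A16 are next to each other on the chromosome, 1.1 kb apart, and S100A2 and S100A16 are 39.0 kb apart. The ratios of S100A14 and S100A16 were nearly equal with the pseudocount, but without it S100A16 was 821-fold higher in RC77 T/E.

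S100A8 and S100A9 encode the subunits of calprotectin, a metal-binding defence protein that is abundant in neutrophils and monocytes and is also made by stressed keratinocytes. S100A8 was at 0.0940 and 104.9 TPM, and S100A9 at 0.381 and 168.7 TPM. Both subunits were thus above 100 TPM in RC77 T/E but under 1 TPM in MDA PCa 2b, and their log2 ratios were 6.60 and 6.94. In RC77 T/E cells S100A9 was 1.61 times as high as S100A8. S100A12, the third gene of this neutrophil group, was not among the members. MDA PCa 2b has it listed at 0, and its RC77 T/E value was 2.43 or 24.3 TPM, since the decimal mark could not be determined. Of 8 myeloid markers, 2 were raised 2-fold or more in the RC77 T/E library, CD68 (0.663 and 37.9 TPM) and CD14 (0.0730 and 4.92 TPM), and none in the other. The shares over all listed genes were 11.3% (RC77 T/E) and 11.4% (MDA PCa 2b). PTPRC, LYZ, CSF3R and FCGR3B, which mark blood leukocytes and granulocytes, are listed at 0 in RC77 T/E cells, and there ITGAM was at 0.0241 TPM and MPO at 0.00572 TPM. The markers summed to 1.35 and 42.9 TPM. Their part in the S100A8 and S100A9 values was not tested.

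S100A10, S100A11 and S100A4 differed least. S100A10 (p11) is the member that has lost calcium binding and stays joined to annexin A2. Its decimal mark could not be determined, and the values that fit are 2.43 and 49.6 TPM or 24.3 and 496.0 TPM. At either position it was 20.4-fold higher in RC77 T/E, with a log2 ratio of 3.88 or 4.30. S100A11, a partner of annexin A1, was at 384.3 and 1057 TPM, 2.75-fold higher in RC77 T/E. S100A11 was the most evenly shared member. S100A4, which binds non-muscle myosin and is known for its link to metastasis, was at 0.842 and 6.86 TPM, 8.14-fold higher in RC77 T/E and the lowest member there. S100A4 overlaps S100A3 on the same strand, so the division of reads between these genes is uncertain. For S100A3, listed at 0 in MDA PCa 2b, 3 positions of the mark fit, with RC77 T/E values from 2.77 to 276.6 TPM.

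S100P (ENSG00000163993, chromosome 4, 6693878 to 6697170) ran the other way. It was 308-fold higher in MDA PCa 2b, with a log2 ratio of -8.10. With genes of other types again left out, 8 of the 11012 protein-coding genes had a lower ratio with each decimal mark at its lowest position. With each mark at its highest position there were 59. The S100P value in RC77 T/E, 8.46 TPM, was above that of S100A4 in the same line.

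Of the 11 other S100 genes of the table, 5 reached 1 TPM in RC77 T/E, beside 52.8% of all listed genes. MDA PCa 2b had 2, beside 49.6% of all listed genes. These 2 were S100A13 and S100A1, neighbours of S100A14 on the far side of the segment. S100A13 was at 95.4 and 86.4 TPM or 954 and 864 TPM, a log2 ratio of -0.14, so the lines did not reach 2-fold for it. It overlaps S100A1, which was at 2.27 and 1.06 TPM, on the opposite strand, and use of the strand in making the values is not stated. S100A7, or psoriasin, a skin antimicrobial protein, is listed at 0 in MDA PCa 2b, with RC77 T/E values from 3.19 to 319 TPM over the 3 positions that fit. S100A5, S100A7A and S100B stayed under 1 TPM in RC77 T/E and are listed at 0 in MDA PCa 2b, and S100A7L2, S100G and S100Z are listed at 0 in both. With the members, 15 of 21 S100 genes reached 1 TPM in RC77 T/E, against 7 in MDA PCa 2b. This total includes the 10 members, which were chosen with the difference between the lines known.

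The 9 members on chromosome 1 span 1634.1 kb, from 151982915 to 153616986. S100A10 and S100A11 stand at one end, 1309.9 kb before S100A9, and the other 7 members lie within the last stretch. In that stretch S100A2, S100A6, S100A8, S100A9, S100A14 and S100A16 had log2 ratios from 6.60 to 11.03, and S100A4 had 2.09. At the other end S100A10 had 3.88, with its decimal mark at the lowest position, and S100A11 1.46. The members were chosen with this difference known, so nothing is read from their place. Between the members the table lists 49 other protein-coding genes. Of these, 12 were raised 2-fold or more in the RC77 T/E library and 2, HRNR and FLG, in the other, beside 11.3% and 11.4% of all listed genes. The 12 include S100A3, S100A7 and S100A12. Outside the S100 family the counts were 9 and 2 of 44 genes. The levels of these 49 were low as a rule with decimal marks at their lowest positions. Of the 49, 13 had a mean of 1 TPM or higher. Several marks were undetermined. The 49 summed to 176 TPM in RC77 T/E at the lowest positions and 3427 TPM at the highest. The 10 small proline-rich (SPRR) genes of the cornified envelope are listed at 0 in MDA PCa 2b. In RC77 T/E 6 of them reached 1 TPM, beside 52.8% of all listed genes, with SPRR1B at 118.8 TPM. The mark of SPRR1B was determined, whereas that of SPRR3 was not, with values from 8.18 to 818 TPM in RC77 T/E. Of the 18 late cornified envelope (LCE) genes only LCE3D reached 1 TPM in RC77 T/E, beside the same 52.8%. Because the genes listed at 0 in MDA PCa 2b carry most of this count, leaving out genes listed at 0 in either line takes it from 12 to 1, IVL, the gene of the envelope protein involucrin (0.00363 and 1.36 TPM).

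Within 500 kb on either side of the segment the table lists 29 protein-coding genes. With 1 TPM added, 0 of them were 2-fold higher in the RC77 T/E library and 8 in the other, beside 11.3% and 11.4% of all listed genes. The highest log2 ratio of these flanking genes was 0.42 at the lowest and 0.48 at the highest positions of the decimal mark. S100A13 and S100A1, which follow directly after S100A14, belong to this flank. Whether the segment and its flanks differ was not tested, since neighbours share a chromosome and each line has 1 library.

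**Figure D4:**
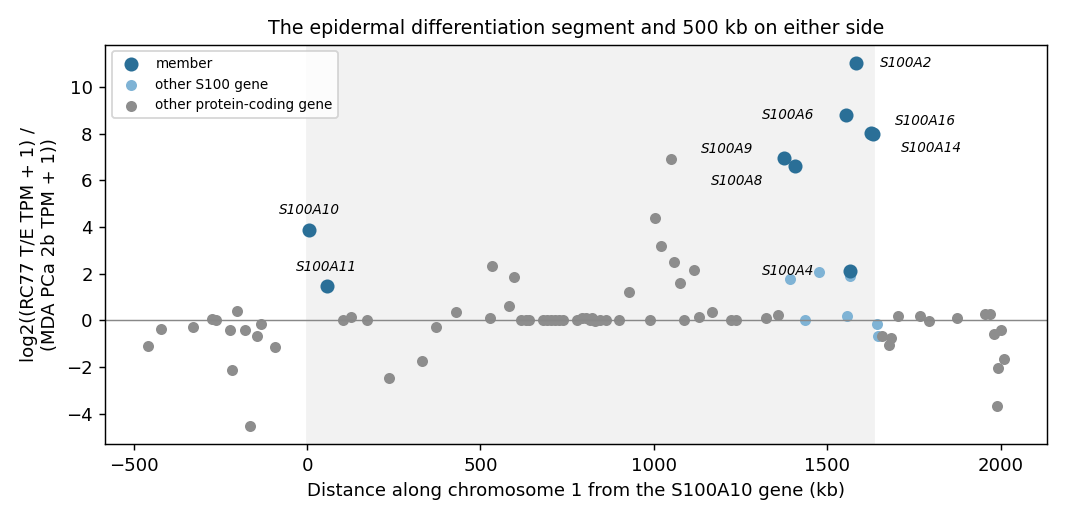
Log2 ratio (RC77 T/E over MDA PCa 2b, 1 TPM added) for protein-coding genes by distance from the S100A10 gene along chromosome 1 (kb), with the segment between the outer members shaded and 500 kb shown on either side; large points are members, light blue points other S100 genes and grey points other genes. The members on the right of the segment reach 11.03, whereas no flanking gene exceeds 0.42, with decimal marks at their lowest positions.

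The proteins that S100 proteins bind were followed in a list of 16 genes. Of these, 7 were raised 2-fold or more in the RC77 T/E library and 1 in the other, beside 19.4% and 20.0% of all genes with a mean of 1 TPM or higher. Their median log2 ratio was 0.76. Over the 15 of them with a mean of 1 TPM or higher it was 0.67, beside -0.15 over all genes with such a mean. The annexin side held 4 of the 7. ANXA1, which binds S100A11, was at 0.211 and 714.8 TPM. ANXA2, which binds S100A10, was at 45.6 and 1985 TPM, and AHNAK, a giant scaffold protein that joins the annexin A2-S100A10 complex, at 8.51 and 145.4 TPM. ANXA6 was 18.8-fold higher in RC77 T/E. By contrast ANXA5 was at 200.0 and 188.7 TPM and ANXA11 at 53.5 and 33.7 TPM, both within 2-fold. ANXA1, ANXA2 and AHNAK were therefore higher in RC77 T/E, as were S100A10 and S100A11. The sizes differed, since ANXA1 was 3386-fold higher there and S100A11 2.75-fold.

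None of the 3 receptors reached 2-fold on the scale with 1 TPM added. AGER, which encodes RAGE, was 1.79-fold higher in RC77 T/E, and BSG, a cell surface receptor of S100A9, 1.51-fold, both with undetermined decimal marks. TLR4 was at 0.0174 and 0.832 TPM, under 1 TPM in both. Among intracellular partners MYH9, the myosin heavy chain bound by S100A4, was 4.04-fold and IQGAP1, a scaffold protein bound by S100P, 3.74-fold higher in RC77 T/E. EZR, the membrane linker ezrin that S100P activates, was 1.52-fold higher in MDA PCa 2b, far from the 308-fold of S100P. CACYBP, which binds S100A6, went against S100A6 and was 2.55-fold higher in MDA PCa 2b. After centring on the median of all genes, CACYBP no longer reached 2-fold with decimal marks at their lowest positions. Its mark was undetermined, and at the highest position its log2 ratio before centring was -1.35 in place of -1.02. The marks of MYH9, IQGAP1 and EZR were undetermined too.

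**Figure D5:**
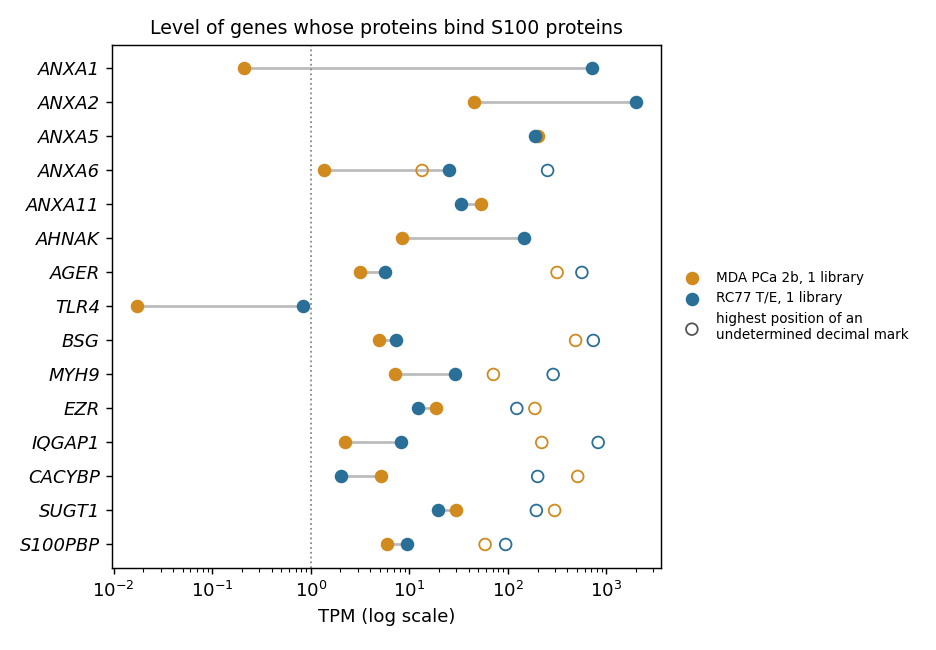
TPM of 15 of the genes whose proteins bind S100 proteins, on a log axis with 1 point per library; open circles give the highest of the values that fit where the decimal mark could not be determined, and the dotted line is 1 TPM. ANXA1, ANXA2, ANXA6 and AHNAK lie well to the right in RC77 T/E, whereas ANXA5, ANXA11, EZR and SUGT1 lie close together.

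Markers of basal and luminal epithelium differed between the lines too. All 6 basal epithelial markers (KRT5, KRT14, KRT15, TP63, ITGB4 and LAMB3) were raised 2-fold or more in the RC77 T/E library, with summed TPM of 44.6 and 9723. Of 8 prostate luminal markers, 6 were raised 2-fold or more in MDA PCa 2b, and none in the other line. KLK3, the gene of prostate-specific antigen, had a TPM of 5323 in MDA PCa 2b but is listed at 0 for RC77 T/E. KRT8 and KRT18, keratins of simple epithelia, were within 2-fold, with KRT18 at 320.5 and 324.8 TPM. Among 5 markers of keratinising epithelium SPRR1B, TGM1 and IVL were raised 2-fold or more in RC77 T/E, beside 11.3% of all listed genes. KRT1 was at or under 0.0189 TPM in both lines. KRT10, the most abundant of these markers in MDA PCa 2b, ran the other way at 17.8 and 8.49 TPM. Its log2 ratio was -0.98 at the lowest and -1.06 at the highest positions of its mark. The part of cell type in the S100 differences was not tested. Of 8 genes used by every cell, 2 (ACTB and EEF1A1) were raised 2-fold or more in RC77 T/E and 1 (RPLP0) in MDA PCa 2b. These counts stand beside 19.4% and 20.0% of all genes with a mean of 1 TPM or higher. GAPDH was at 1957 and 1923 TPM.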

How the data were processed

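RNA of both cell lines was isolated with TRIzol, and paired-end directional libraries were made, per the labels. The submitters' processing notes name FastQC 0.11.9, Trimmomatic 0.38, Salmon 1.2.0 and GRCh38. The authors deposited 1 table of TPM values for 22791 rows with the mean and standard error of the 2 lines. Values from 1 TPM upward that carry 3 decimals or more had lost their decimal mark, although plain TPM had been assumed in the design. Each position with 1 to 3 digits before the mark was tried and kept where the deposited mean and standard error followed from it, which left 1 position for 16211 of 22704 loci and for 9 of 10 members. The lowest position was used elsewhere, with the highest as an alternative. Loci of one symbol were summed to 21382 genes. The restoration was tested on simulated data that had lost their marks by the same assumed rule. That test checks the calculation and cannot show that the deposited values lost their marks in this way. A gene was called different at 2-fold with a pseudocount of 1 TPM. No test was possible with 1 library per line. Positions are those of the table, and 10 of 10 members overlap their gene in GENCODE 29, from which strands and overlaps were taken. Promoter sequences are from RefSeq (GRCh38.p14).

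Named genes are the 10 members, members of the partner, marker and family lists, the protein-coding genes next to S100A2 in the order of the ratio, and the 3 nearest to it in level. LCE3D, MRFAP1, MRFAP1L1, TADA2B and GRPEL1 were named after their values were seen. The members and lists were chosen with earlier results of these data known. Alternatives were another threshold, fold, pseudocount, scaling and locus rule. Leaving out genes listed at 0 was added after seeing the data. The marker genes ACPP and LOR were not analysed here, and some items of the lists are not reported here. Python 3.11.15, numpy 2.4.6 and matplotlib 3.10.9 were used.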

Additional observations from a re-analysis of the deposited data

How the results depend on the processing

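Each member kept its direction and moved by less than 1.5 times in log2 ratio in all 50 recalculations (pseudocount of 0.1 TPM, centring, scaling to the upper quartile, highest positions of the decimal mark and largest locus). Many of these could change little. The largest locus left every member's ratio as it was, and the highest positions could change only that of S100A10. Centring adds the same amount to each member. The counts of 9 and 1 members 2-fold apart were the same under all the settings named, and 8 and 1 at 4-fold. With a threshold of 5 TPM the members expressed in MDA PCa 2b fell from 5 to 2 at the lowest and 3 at the highest positions, and the other S100 genes to 1 in either line at the lowest positions. Over the 5 members at 1 TPM or more in both lines the median log2 ratio was 3.88 in place of 6.77. Among the partners, 0 were 2-fold higher in MDA PCa 2b in place of 1 after centring, after scaling to the upper quartile and at 4-fold. These 3 settings used the lowest positions of the decimal mark. At 4-fold, 7 and 1 neighbours of the chromosome 1 segment were higher in RC77 T/E and MDA PCa 2b in place of 12 and 2, and 1126 and 719 of all genes in place of 2250 and 2324. Without genes listed at 0 in either line, 1 neighbour was higher in RC77 T/E. No paired analysis was possible because there was a single library for each line. Depth is unknown, so values near 0 have no limit of detection.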

Other observations

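The fused-type S100 genes have long proteins that begin with an S100 domain and serve the cornified layer of skin. Of these, HRNR and FLG ran against the S100 members of the same chromosome 1 segment. HRNR (hornerin) had a TPM of 5.30 in MDA PCa 2b against 0.126 in RC77 T/E, and FLG (filaggrin) 4.07 against 0.529. Both were raised 2-fold or more in MDA PCa 2b, and the other 5 genes of this group (FLG2, RPTN, TCHH, TCHHL1 and CRNN) stayed under 1 TPM in both lines. HRNR and FLG lie between S100A11 and S100A9, which are 1309.9 kb apart.

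Around S100P on chromosome 4, 11 other protein-coding genes lie within 500 kb. With 1 TPM added, none was raised 2-fold in RC77 T/E and 3 were in MDA PCa 2b (MRFAP1, TADA2B and GRPEL1), beside 11.3% and 11.4% of all listed genes. MRFAP1L1 makes 4 at the highest positions of the decimal mark. MRFAP1, the only one of these whose decimal mark was determined, had a TPM of 363.5 in MDA PCa 2b against 134.9 in RC77 T/E, a log2 ratio of -1.42 beside -8.10 for S100P.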
